A study of Mus musculus with 59 samples.

Results

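The chromatin occupancy of DGCR8 was compared in mouse embryonic stem cells held at 42 °C for 1 h and in cells kept at 37 °C. DGCR8 is the RNA-binding partner of the nuclease Drosha in the Microprocessor, which recognises hairpins in nascent transcripts and releases microRNA precursors. It binds RNA, so after crosslinking its signal in chromatin immunoprecipitation (ChIP) is read over transcribed DNA. Heat shock activates the transcription factor HSF1, which switches on genes for chaperones, the proteins that keep other proteins folded. The comparison rests on 3 of the 59 libraries of the series, chosen by their titles and not by any measured value: a DGCR8 precipitate at 42 °C, a DGCR8 precipitate at 37 °C, and a DGCR8 input, chromatin without pulldown, at 37 °C. No 42 °C input was analysed here. The cells were 129xC57Bl6 hybrids that express the biotin ligase BirA from Rosa26 and carry a FLAG/Avi tag on endogenous DGCR8, and the tagged protein was pulled down on streptavidin beads without an antibody. All cells, heated or not, carried the tag and the ligase.

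Beside them stand METTL3 precipitates of the same set, from tagged lines called H4 and H5, each with 1 library at 42 °C and 1 at 37 °C, and DGCR8 precipitates at 37 °C from 2 other sets. METTL3 is the catalytic subunit of the m6A RNA methyltransferase. The first of the other DGCR8 precipitates was the wild type control of a Mettl3 knockout experiment (here the knockout set), and the second came from cells crosslinked with disuccinimidyl glutarate (the DSG set). RNA of 2 parental lines, which also carry tagged DGCR8, was sequenced after 1 h at 42 °C and at 37 °C. These RNA libraries matched their label: the 8 stem cell markers, Pou5f1, Nanog and Sox2 among them, had 98.1 to 1166 CPM (counts scaled to one common library size) across the 4 parental libraries, whereas 3 of 5 fibroblast feeder markers were under the count filter and the other 2 had 0.292 to 10.8 CPM. Of 4 endoderm markers, 1 was under the filter and 3 had 1.5 to 6.16 CPM.

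The libraries differed in more than temperature. On chromosomes 1 to 19 and X the DGCR8 precipitate at 42 °C held 79.2 M counts and the one at 37 °C 20.4 M, against 62.0 M in the input, and the other 37 °C precipitates held 30.2 M (knockout set) and 48.0 M (DSG set). The share of counts in the top 5% of windows was 14.3% at 42 °C and 25.4% at 37 °C, and 12.2% and 17.0% in the knockout and DSG sets. In gene-free windows the coefficient of variation beyond counting error was 31.4% at 42 °C and 85.9% at 37 °C, and 29.5% and 32.9% in those sets. The 37 °C precipitate of the heat set therefore stood apart from the 3 other DGCR8 precipitates used here, with more counts in few windows and a more uneven background. The main DGCR8 ratios are given against it and, beside it, against the other 37 °C precipitates, which come from other experiments and are no replicates. The input bears the DGCR8 title and column name but a source name and genotype of a METTL3 precipitate. Across windows its counts ranked with those of the H5 input at a Spearman correlation of 0.963 and with those of the H5 precipitate at 37 °C at 0.810. The 4 METTL3 precipitates and the H4 input carry the source names of other libraries of the set too, so their identity, here taken from titles and column names, is less certain than that of the DGCR8 precipitates, whose labels match. The DGCR8 input enters the input filter, the values over input and the setting with input subtracted. It also selected the windows for the median window scaling and for the background variation given above.

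With 1 library per temperature there is no test, and a ratio compares libraries, not conditions. The ratio is the log2 of CPM at 42 °C over CPM at 37 °C with a pseudocount of 1, and the intervals (95%, exact binomial) cover counting error only. Gene values are counts summed over all 5 kb windows that a gene touches, divided by the number of windows. Neighbouring genes can thus share windows. A gene was called higher or lower at 1.5-fold, with at least 50 counts in both precipitates together. The background is high: of 36629 gene loci that passed the input filter, 22.4% were called higher and 15.1% lower, and of 45883 loci without that filter 19.6% were higher and 19.5% lower. The share called lower rose with RNA level in parental cells at 37 °C. It was 10.9% of loci under 1 CPM, and 42.7% and 65.7% in quartiles 3 and 4 of the expressed genes. The shares over all loci turn with the scaling. When libraries were scaled on the median window, which moved every ratio by 0.36, the filtered loci split into 3527 higher and 10587 lower, against 8222 and 5514 when scaled on totals. Scaling on gene-free windows moved ratios by 0.30 and gave 4089 higher and 9555 lower. A stricter call asked for 1.5-fold against each of the 3 DGCR8 precipitates at 37 °C. It was met by 411 loci above (0.896%) and 175 below (0.381%). These comparisons share the 42 °C library.

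DGCR8 signal was higher at 42 °C over most heat shock chaperone genes, by the widest margin at the HSP70 genes and Hsph1, where signal at 37 °C was near input. Of the 15 members of the heat shock core list, 10 were called higher and 1 lower, against the background of 19.6% higher. All of the 10 were also above each 37 °C precipitate, against 0.896% of all loci, or 9 under either other scaling. Under the input filter, which 10 members passed, 7 were higher and 1 lower. The median ratio over the list was 1.07 against the 37 °C precipitate of the same set, 2.68 against the knockout set and 2.38 against the DSG set, where all gene loci had medians of 0.06, 0.02 and -0.05. Over input the list's median was 2.82 at 42 °C and 0.52 at 37 °C, and 23.2% of all loci at 42 °C and 24.1% at 37 °C were at least 1.5-fold over input.

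Hspa1b (chromosome 17, 34956429 to 34959238, mm10), which encodes inducible HSP70, had 70.2 CPM per window at 42 °C (5558 counts) and 3.24 at 37 °C (66 counts), against 2.32 in the knockout set, 2.23 in the DSG set and 3.71 in input. Its log2 ratio was 4.42 (interval 4.09 to 4.81). Hspa1a (chromosome 17, 34969359 to 34972156), which encodes a near-identical HSP70, had 49.2 CPM per window at 42 °C and 3.19 at 37 °C, with 2.05 and 3.09 in the knockout and DSG sets and 4.89 in input, a ratio of 3.94 (interval 3.70 to 4.21). The 42 °C library alone stood above input at these genes, and every 37 °C precipitate was under it. The 2 genes are near-identical copies, and how reads that match both were placed is not given in the sources used here, so their separate values are uncertain.

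Hsph1 (chromosome 5, 149616843 to 149636498), a nucleotide exchange factor of HSP70, had 52.9 CPM per window at 42 °C and 5.51 at 37 °C, with 3.17 and 4.31 in the knockout and DSG sets and 5.03 in input, a ratio of 3.26 (3.14 to 3.39). Dnajb1, the HSP40 co-chaperone, had 36.6 CPM per window at 42 °C and 7.34 at 37 °C, with 4.37, 4.63 and 8.11 in the knockout set, the DSG set and input, a ratio of 2.32 (2.15 to 2.49). Hspb1, a small heat shock protein, had 43.1 CPM at 42 °C and 12.6 at 37 °C, with 3.45, 6.78 and 8.72 in those libraries (ratio 1.77). At each of these genes the 42 °C value stood above every 37 °C value.

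Several other chaperone genes already carried DGCR8 well above input at 37 °C in the same set. Hsp90aa1, the inducible cytosolic HSP90, had 45.6 CPM at 42 °C and 21.7 at 37 °C, with 5.35 and 6.28 in the knockout and DSG sets (ratio 1.07). Hspe1, the mitochondrial HSP10, had 64.2 at 42 °C and 31.5 at 37 °C, with 7.21 and 12.3 in those sets (ratio 1.03), and Hspd1, its partner HSP60 on the adjoining stretch, 47.0 and 33.8, with 7.35 and 11.6 (ratio 0.48). Hspe1 and Hspd1 share the window of their starts, so their values are not independent. Hspa8, the constitutive HSC70, had 49.4 at 42 °C and 37.6 at 37 °C, with 8.14 and 17.6 (ratio 0.39). These genes were far above the knockout and DSG sets, but the margin over the 37 °C library of the same set was small or under the call. The remaining members had ratios of 1.24 for Hspa1l, a testis-enriched HSP70, 1.24 for Hspa4l, an HSP110 relative, 0.84 for Dnaja1, an HSP40, and 0.42 for Bag3, a co-chaperone of HSP70. Hspa1l shares a window with Hspa1a, at 2.08, and its other window was at 0.44, so its call among the 10 rests on the shared window. Hsp90ab1, the constitutive HSP90, was at -0.39 (41.9 CPM at 42 °C, 55.1 at 37 °C), yet at 2.26 and 0.85 against the knockout and DSG sets. Chordc1, an HSP90 co-chaperone, was the member called lower (-0.64), and stood at 0.59 and 0.35 against those sets.

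**Figure D1:**
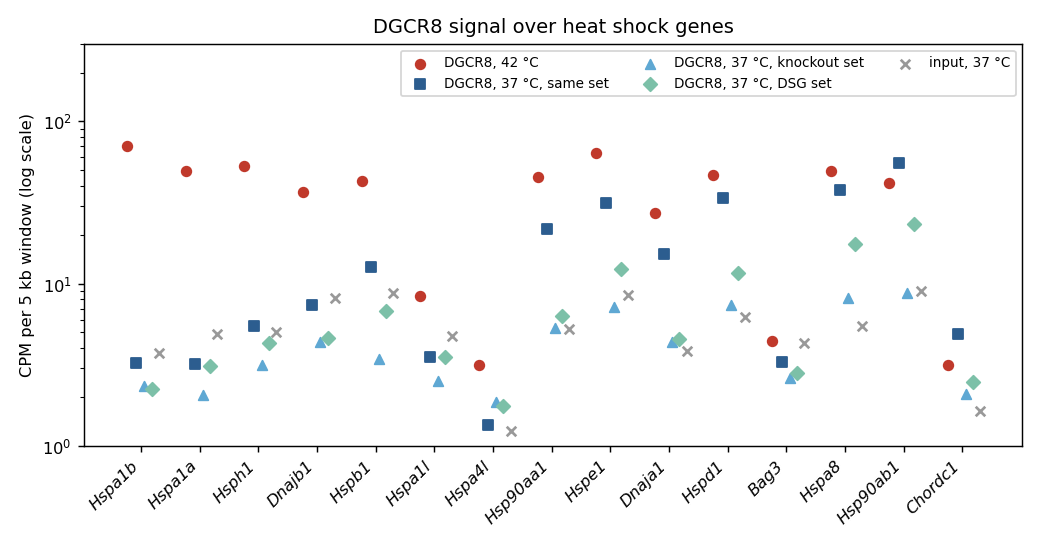
Mean DGCR8 CPM per 5 kb window (log axis) over the 15 heat shock core genes, ordered by their 42 °C over 37 °C ratio, 1 point per library. The 42 °C points stand above every 37 °C point at all genes but Hsp90ab1 and Chordc1, from 70.2 against at most 3.24 CPM at Hspa1b to 41.9 against 55.1 CPM at Hsp90ab1.

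Promoters of these genes are shown for their heat shock motifs. HSF1 binds repeated GAA units in alternating orientation, so the pair of units (GAANNTTC or TTCNNGAA, each of which reads the same on both strands) was searched in the 250 bases before the start of each gene, from RefSeq promoters of GRCm38.p6, the same assembly as mm10. A promoter was found for 12 of the 15 members. A pair stood in 6 of these 12 (50.0%) and in 13.1% of 26793 promoters, and a run of 3 alternating units at the same spacing, which contains the pair, in 1 of 12, Hspe1, and in 0.407% of all. A match is a description of the sequence, not a binding site. Dnajb1, Hspa1l, Hspa4l, Bag3, Chordc1 and Hspd1 held no pair in this window, also where their DGCR8 ratio was high (Dnajb1 at 2.32). The 150 bases before the start of 5 of the 6 members with a pair follow, all but Dnaja1, 5′ to 3′ on the gene's strand, with the pairs in capitals. For Hsph1 the starts in the RefSeq promoter table lie inside the gene's annotated span, so its stretch does too. The Hspa1b and Hspa1a stretches are identical at 149 of 150 bases.
Hspa1b (chr17:34959239-34959388, minus strand): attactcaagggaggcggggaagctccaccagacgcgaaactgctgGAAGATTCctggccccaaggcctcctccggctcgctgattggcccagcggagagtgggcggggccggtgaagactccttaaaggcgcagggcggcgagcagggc
Hspa1a (chr17:34972157-34972306, minus strand): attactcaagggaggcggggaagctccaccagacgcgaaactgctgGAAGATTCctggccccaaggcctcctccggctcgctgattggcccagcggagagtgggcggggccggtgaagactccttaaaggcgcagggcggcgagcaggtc
Hsph1 (chr5:149636337-149636486, minus strand): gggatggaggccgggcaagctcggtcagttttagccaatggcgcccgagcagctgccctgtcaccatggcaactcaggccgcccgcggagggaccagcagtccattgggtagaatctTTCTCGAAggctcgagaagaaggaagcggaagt
Hspb1 (chr5:135887769-135887918, plus strand): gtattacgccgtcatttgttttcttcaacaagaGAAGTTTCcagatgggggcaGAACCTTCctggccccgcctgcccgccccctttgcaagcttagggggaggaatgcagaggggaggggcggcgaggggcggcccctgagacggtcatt
Hspe1 (chr1:55087998-55088147, plus strand): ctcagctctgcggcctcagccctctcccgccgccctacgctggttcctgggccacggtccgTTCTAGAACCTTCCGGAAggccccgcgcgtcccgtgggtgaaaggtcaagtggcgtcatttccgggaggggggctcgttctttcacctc

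At Hsph1 the higher signal covered the whole gene and the stretch just beyond its end. There the start window had 34.5 CPM at 42 °C and 4.37 at 37 °C, and the window at the 3′ end, 20 kb on, had 85.4 at 42 °C and 7.46 at 37 °C. The next window, 25 kb from the start and past the gene's end, still had 24.4 CPM at 42 °C and 4.81 at 37 °C, and 30 kb from the start the values were 3.52 and 2.36. Upstream, 5 kb before the start window, where a pair of long noncoding RNA genes lies, they were 22.1 at 42 °C and 5.64 at 37 °C. At Hspa1a the window 5 kb from the start window had 87.8 CPM at 42 °C and 3.93 at 37 °C, and the gene-free window between Hspa1a and Hspa1b had 7.99 and 3.09. Past Hspa1b, the window of the snoRNA host 1110038B12Rik had 12.7 CPM at 42 °C and 33.4 at 37 °C (ratio -1.40), with 7.42 in the knockout set and 15.4 in the DSG set. Against the library of the same set, higher and lower windows thus lay side by side. Against the knockout and DSG sets the 1110038B12Rik window was at 0.77 and -0.28. Over the 12 heat shock core genes with an annotated start, the median ratio was 1.67 in the start window, 0.72 in the next, and 0.03 both 15 kb before and 15 kb after it. As some starts share a window, the start value rests on 10 windows.

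**Figure D2:**
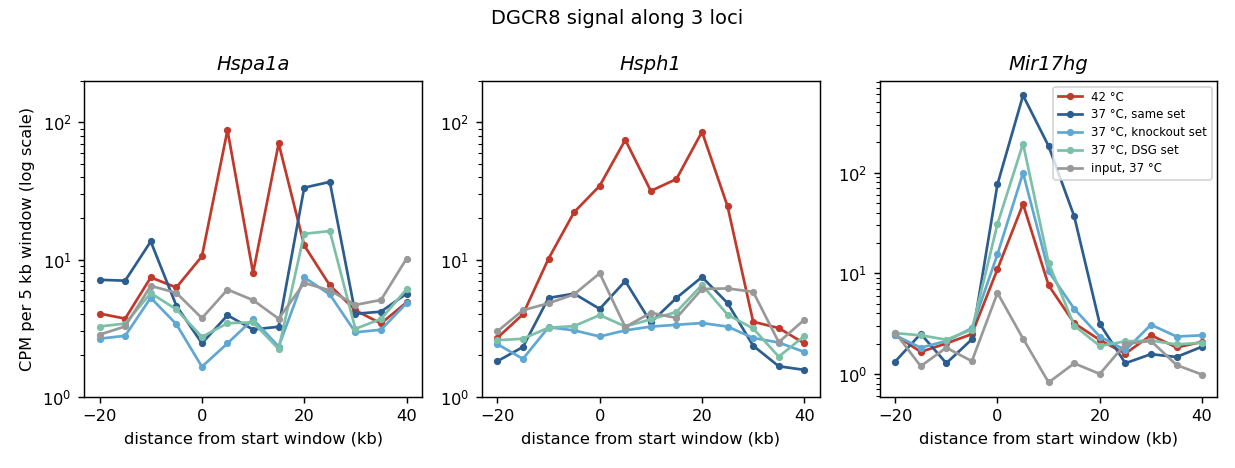
DGCR8 CPM per 5 kb window (log axis) against distance from the window of the gene's start, along the direction of transcription, 1 line per library, at Hspa1a (Hspa1b lies at 15 kb), Hsph1 and Mir17hg. The 42 °C line peaks at 87.8 CPM at Hspa1a and 85.4 at Hsph1 where the 37 °C lines stay near input, and lies under all 37 °C lines at the Mir17hg peak (48.9 CPM, against 588, 99.8 and 195).

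Outside the core list, few stress genes were called higher. Of 36 other chaperones and co-chaperones, 3 were higher and 22 lower (background 19.6% and 19.5%), and the 3 were also above every 37 °C precipitate. They were Serpinh1, the collagen chaperone HSP47 (18.6 CPM at 42 °C and 7.49 at 37 °C, ratio 1.31), Stip1, which links HSP70 to HSP90 (12.6 and 6.62, ratio 0.93), and Hspb8, a small heat shock protein (12.1 and 6.41, ratio 0.91). Fkbp4, an HSP90 co-chaperone, was at -0.18. Of 21 other stress genes, 0 were higher and 14 lower. Txnip, a thioredoxin inhibitor, was at -0.81, Ubb, which encodes polyubiquitin, at -1.27, and Atf4, the integrated stress response factor, at -2.46. Against the knockout set those 3 genes were at 1.75, 1.57 and 0.21. Among 29 immediate early genes, 1 was higher (Dusp2, a phosphatase, at 0.65, a call lost under either other scaling) and 14 lower. Junb, an AP-1 subunit, had 41.2 CPM at 42 °C and 35.2 at 37 °C, with 9.68 and 13.5 in the knockout and DSG sets, and Zfp36, an mRNA decay factor, 15.1 and 13.0, with 4.04 and 9.32. Their ratios of 0.23 and 0.21 turn negative under the other scalings. RNA of Junb (log2 fold change 1.93 ± 0.24, edgeR adjusted p = 0.00475) and Zfp36 (2.48 ± 0.22, 0.000489) rose when the cell line was a block.

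METTL3 was also higher at heat shock chaperone genes, and at the HSP70 genes by far more than DGCR8. In the window that holds most of the Hspa1a signal, METTL3 had 2839 CPM at 42 °C and 6.12 at 37 °C in H4, and 4668 and 4.47 in H5, against the 87.8 and 3.93 CPM of DGCR8. Per gene, the METTL3 ratios were 8.55 (H4) and 9.24 (H5) at Hspa1b, 4.22 and 3.52 at Hsph1, and 3.59 and 3.09 at Dnajb1. Of the 15 core genes, 10 were called higher in both METTL3 lines, where 1.28% of all loci were higher and 5.13% lower in both. The window of 1110038B12Rik, lower for DGCR8 against the library of the same set, was higher for METTL3 (2.53 in H4 and 2.37 in H5). No library is shared between the DGCR8 and METTL3 ratios. Of the 411 loci above all DGCR8 precipitates at 37 °C, 49 were also higher in both METTL3 lines, which is 11.9% of the DGCR8 loci and 8.36% of 586 METTL3 loci. Of the 175 below, 48 were lower in both lines, 27.4% of the DGCR8 loci and 2.04% of 2353 METTL3 loci. Across 45883 gene loci, which share windows with neighbours, the DGCR8 ratio against the same set and the mean METTL3 ratio correlated at a Pearson r of 0.642. The METTL3 ratios of H4 and H5 correlated with each other at 0.584, so 0.642 is not particular to the DGCR8 and METTL3 pair.

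**Figure D3:**
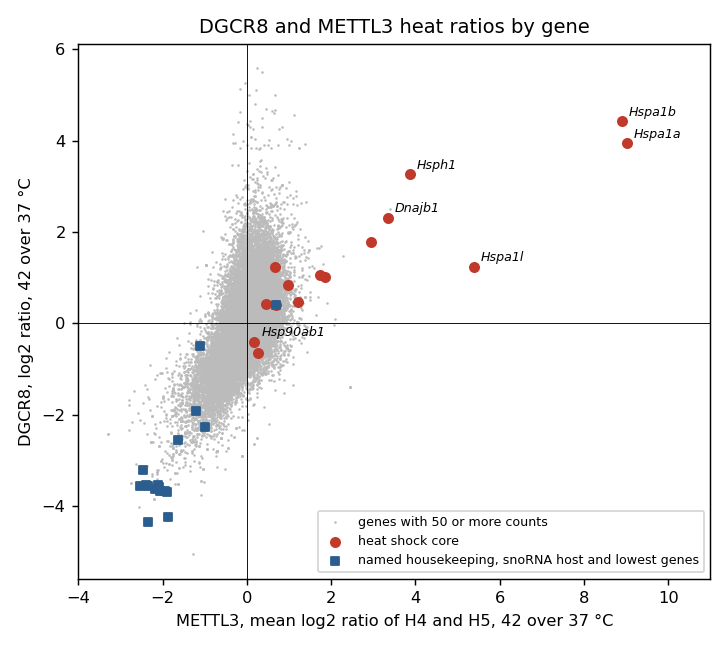
DGCR8 log2 ratio (42 over 37 °C, same set) against the mean METTL3 log2 ratio of H4 and H5, 1 point per gene locus with 50 or more counts. Hspa1b, Hspa1a, Hsph1 and Dnajb1 lie at the top right (DGCR8 ratios of 4.42, 3.94, 3.26 and 2.32), and the named housekeeping, snoRNA host and lowest loci mostly at the bottom left. Loci with a high DGCR8 ratio and a METTL3 ratio near 0 include Olfr1495, which had 2 counts at 37 °C.

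The RNA of parental cells after the same treatment was measured in 12 libraries with the Mettl3 knockout lines, of which 4 were parental, with 2 lines at each temperature. With edgeR's quasi-likelihood test without a block, 2 of 15635 genes rose (0.0128%) and 1, Zfp941, fell. With the cell line as a block, as libraries of a line deviated together, 69 rose (0.441%) and 50 fell (0.320%). Hspa1a had 163 and 246 CPM in the parental libraries at 42 °C, against 1.07 and 0.657 at 37 °C (log2 fold change 7.86 ± 0.41 SE; edgeR adjusted p = 1.78e-06, or 1.48e-08 blocked). Hspa1b had 293 and 406 CPM at 42 °C, against 1.67 and 3.53 at 37 °C (7.07 ± 0.41; edgeR adjusted p = 2.96e-06). Dnajb1 (2.48 ± 0.14, edgeR adjusted p = 5.78e-06), Hsph1 (1.21 ± 0.17, 0.00897) and Hspa1l (3.37 ± 0.55, 0.0223) passed with the block alone, and their adjusted p-values without it were 0.147, 1 and 0.568 by edgeR. These 5 were the core members called, and 10 core members did not pass with the block either, Hspe1 (0.48 ± 0.12, edgeR adjusted p = 0.107) and Hsp90aa1 (0.23 ± 0.15, adjusted p = 0.524) among them, though their DGCR8 ratios passed 1.5-fold. No label says that the parental lines were grown apart, so the p-values may reflect technical spread alone, and in bulk RNA a gene's change per cell cannot be told apart from a change in the number of cells.

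Of 57 loci of genes whose RNA rose with the block, 10 were above all DGCR8 precipitates at 37 °C (0.896% of all loci). Besides 5 core genes they were Serpinh1, Hspb8, Socs3, an inhibitor of cytokine signalling (ratio 0.60), Aqp3, an aquaglyceroporin (1.09), and 2310043M15Rik (1.45). Hspb8 fell under 1.5-fold with the median window scaling, and Socs3 with either other scaling. Of 47 loci of genes whose RNA fell, 0 were called higher, 35 were called lower and 4 were below all of them (background 0.381%): Mir17hg, Rpl3, Zfas1 and Snhg6. Of the 57 rising loci, 18 were called lower for DGCR8 against the library of the same set (background 19.5%). Among 12443 loci whose RNA log2 fold change lay between -0.5 and 0.5, 40.9% were called lower. Zfp941, a zinc finger gene, had a DGCR8 ratio of -1.13, and of -0.01 and -0.07 against the knockout and DSG sets. Across 14796 genes the RNA change and the DGCR8 ratio correlated at a Pearson r of 0.05.

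Highly transcribed genes carried less DGCR8 at 42 °C than in the 37 °C precipitate of the same set, but mostly not less than in the knockout set. All 26 housekeeping genes were called lower (background 19.5%, and 65.7% in the highest RNA quartile). Their median ratio was -2.05, against -0.71 for the DSG set and 0.09 for the knockout set. Eef1a1, the translation elongation factor, had 6.69 CPM per window at 42 °C and 61.5 at 37 °C, with 9.61, 20.9 and 4.48 in the knockout set, the DSG set and input (ratio -3.20). The 42 °C value was the lowest of the precipitates and stood near input. Ncl, which encodes nucleolin, had 8.31 at 42 °C and 48.6 at 37 °C, with 8.08 and 15.4 in those sets (ratio -2.54). Ppia, the cyclophilin, had 18.5 at 42 °C and 69.6 at 37 °C, with 6.86 and 14.9 (ratio -1.91), so it stood between the 37 °C libraries. Of this list, Tuba1b and Rpl3 were at least 1.5-fold below all of them.

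Other expressed groups were lower too, to be read beside the 42.7% and 65.7% of loci called lower in RNA quartiles 3 and 4. Of 28 pluripotency genes 24 were lower (median -1.56, against 0.14 and -0.49 for the knockout and DSG sets), with Tdgf1, the Nodal co-receptor, at -2.28 and Klf2, a naive state factor, at -1.79. Of 26 SR protein, CLK kinase and hnRNP genes 25 were lower (median -1.83, against 0.13 and -0.30), with Srsf2, a splicing factor, at -1.88. Of 91 ribosomal protein genes 83 were lower (median -2.19, against -0.03 and -0.88), and 4 were below every 37 °C precipitate: Rpl3, Rps9, Rplp1 and Rpl29. METTL3 medians for these lists were also under 0, at -1.45 (H4) and -1.06 (H5) for housekeeping genes and -1.41 and -0.92 for ribosomal protein genes. By position, the housekeeping median was -1.66 in the start window and -2.33 in the next window. In RNA, Tdgf1 fell with the block (log2 fold change -0.58 ± 0.10, edgeR adjusted p = 0.0274), whereas Klf2, Srsf2, Eef1a1 and Ncl did not pass.

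Host genes of small nucleolar RNAs, the guides of ribosomal RNA modification that sit in introns, had the lowest list median. Of 40 hosts 38 were lower (background 19.5%, and 65.7% in the highest RNA quartile). Their median was -2.53, against -0.25 and -1.13 for the knockout and DSG sets. Below all DGCR8 precipitates at 37 °C were 8: Snhg3, Snhg5, Snhg6, Snhg8, Gas5, Zfas1, Eif4a2 and Rpl3 (0.381% of all loci). Snhg3, a long noncoding host, had 3.78 CPM at 42 °C (299 counts) and 72.2 at 37 °C (1470 counts), with 12.7, 36.3 and 5.66 in the knockout set, the DSG set and input (ratio -4.24, interval -4.44 to -4.08). Its 42 °C value was under input and under every other precipitate. Snhg6 had 7.66 CPM at 42 °C and 97.6 at 37 °C, with 14.1, 30.9 and 8.66 in those libraries (ratio -3.66). The window of Snora81 within Eif4a2 had 3.12 at 42 °C and 64.6 at 37 °C, with 10.5, 14.4 and 1.26 (ratio -4.35). Hspa8 (0.39) was among the hosts not called lower. The 10 gene loci with the lowest ratios among those that passed the input filter and had at least 200 counts were all snoRNA genes or snoRNA hosts, with ratios of -4.35 to -3.53, and of -1.74 to -0.47 against the knockout set and -3.26 to -1.24 against the DSG set. Both METTL3 lines were lower there too, by -2.82 to -1.88 in H4 and -2.58 to -1.67 in H5. Among loci outside the input filter the lowest was no snoRNA host: Ypel4, a protein-coding gene beside Mir130a and singled out after its value was seen, had 3114 counts at 42 °C and 26583 at 37 °C, with ratios of -5.05, and -1.47 and -2.55 against the knockout and DSG sets. METTL3 was at -1.20 in H4 and -1.33 in H5 there. RNA of Snhg6 fell with the block (log2 fold change -1.01 ± 0.20, edgeR adjusted p = 0.0436), while that of Snhg3 did not pass (-0.11 ± 0.14, 0.766).

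Nuclear long noncoding RNAs overlapped this list: 19 of 27 were lower (background 19.5%, and 65.7% in the highest RNA quartile). Of them, 6 were below all 37 °C precipitates (0.381% of all loci), each a snoRNA host. Malat1, a nuclear speckle RNA, had 16.3 CPM at 42 °C and 61.8 at 37 °C, with 13.2 and 23.4 in the knockout and DSG sets (ratio -1.92). Neat1, the scaffold of paraspeckles, had 13.6 and 26.3, with 7.86 and 19.0 (ratio -0.96). Both lay between the 37 °C libraries.

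**Figure D4:**
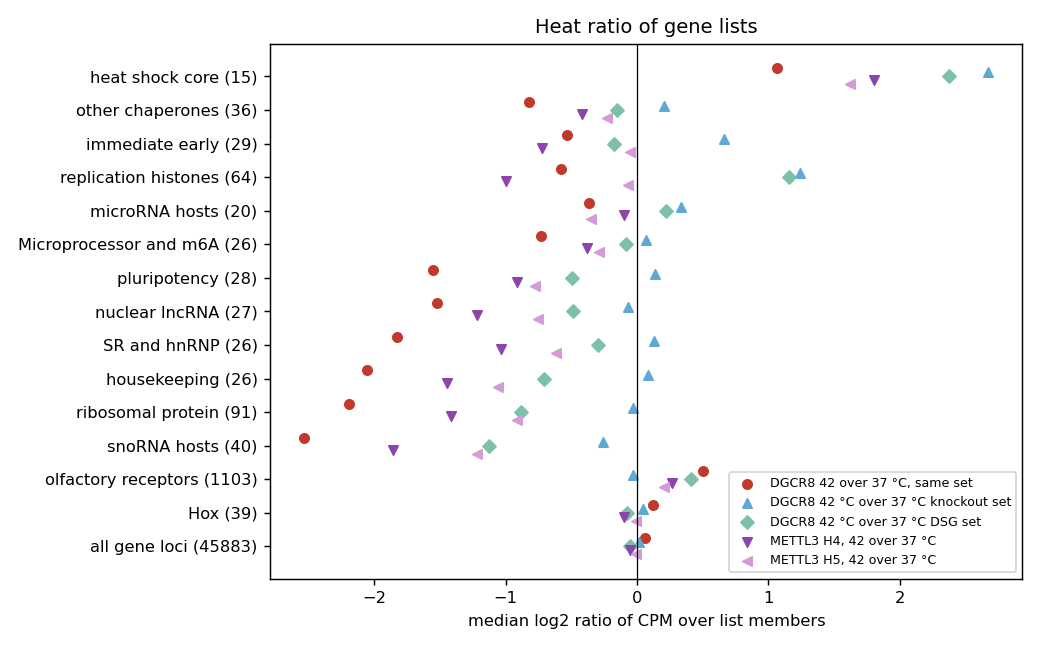
Median log2 ratio over the members of each gene list (number with 50 or more counts in brackets), for DGCR8 at 42 °C against each 37 °C DGCR8 precipitate and for METTL3 H4 and H5. The heat shock core lies right of 0 in all (1.07, 2.68, 2.38, 1.81 and 1.62), while expressed lists lie left of 0 against the 37 °C library of the same set (housekeeping -2.05) and near 0 against the knockout set (0.09).

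At the main microRNA clusters, the natural targets of the Microprocessor, DGCR8 stood far above input at 42 °C but at lower CPM than in the same set at 37 °C. Mature products of the main clusters are printed to show their families, from RefSeq on GRCm38.p6, 5′ to 3′, with the seed (bases 2 to 8), which pairs with targets, in capitals. The miR-290 cluster supplies the abundant microRNAs of embryonic stem cells, and miR-291a, miR-294 and miR-295 share the seed AAGUGCU. In the miR-17-92 cluster miR-17 and miR-20a share AAAGUGC, and miR-19a and miR-19b share GUGCAAA.
miR-291a-3p: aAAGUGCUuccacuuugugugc
miR-294-3p: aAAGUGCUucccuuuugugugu
miR-295-3p: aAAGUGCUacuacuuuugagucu
miR-17-5p: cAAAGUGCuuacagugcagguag
miR-20a-5p: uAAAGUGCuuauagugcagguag
miR-19a-3p: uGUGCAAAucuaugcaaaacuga
miR-19b-3p: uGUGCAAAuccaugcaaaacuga
miR-92a-3p: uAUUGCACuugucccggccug

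The window of Mir293, Mir294 and Mir295 (chr7:3220001-3225000) had the strongest DGCR8 signal of these loci, with 314 CPM at 42 °C and 1275 at 37 °C, against 226 in the knockout set, 583 in the DSG set and 2.08 in input (ratio -2.02). The adjoining window with Mir290a (chr7:3215001-3220000) had 70.8 at 42 °C and 237 at 37 °C, against 73.5, 175 and 3.64 (ratio -1.75). At both windows the knockout set was the 37 °C library nearest to the 42 °C value. Mir17hg (chromosome 14, 115044390 to 115046728), the host transcript of miR-17-92, had 30.0 CPM per window at 42 °C and 332 at 37 °C, against 57.6 in the knockout set, 113 in the DSG set and 4.31 in input. Its ratios were -3.47 (interval -3.52 to -3.42), -0.94 and -1.91, so the 42 °C value was the lowest of the 4 precipitates, and METTL3 was at -1.29 in H4 and -0.73 in H5. Mir17hg RNA had 28.4 and 9.62 CPM at 42 °C, against 99.5 and 31.1 at 37 °C, and fell with the block (log2 fold change -1.76 ± 0.22, edgeR adjusted p = 0.00531). The window past its end (chr14:115050001-115055000) had the lowest ratio of the windows that passed the filters, -4.59, with 7.59 CPM at 42 °C and 184 at 37 °C, but 10.5 and 12.7 in the knockout and DSG sets.

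Of 20 microRNA host genes, 0 were higher and 9 lower (background 19.6% and 19.5%), and Mir17hg was the only one below every 37 °C precipitate. Mcm7, a replication helicase subunit that hosts miR-106b-25, had 27.8 CPM at 42 °C and 33.1 at 37 °C, with 8.23 and 20.3 in the knockout and DSG sets (ratio -0.25). Mir124a-1hg had 30.3 and 73.2, with 10.7 and 68.3 (ratio -1.27). MicroRNA windows were chosen by enrichment in the other sets, at least 2-fold over their own input in both the knockout and DSG sets. They also had to pass the window filters, which use counts of the compared precipitates and of their input. Of 21 such windows with a hairpin, 0 were 2-fold higher and 12 were 2-fold lower against the library of the same set, where 18.0% of all 414381 windows were higher and 3.58% lower. The median was -1.61, and against the knockout and DSG sets, which chose the windows, it was 0.06 and 0.09. Among all 18857 windows chosen in that way 21.8% were higher and 3.72% lower. Of the 414381 windows that passed the filters, 7 were 8-fold over input in both sets, each within a microRNA host or at or beside microRNA genes. All 7 were lower at 42 °C than in the same set at 37 °C. Against the knockout set their ratios ran from -1.03 at Mir17hg to 1.34 beside Mirlet7d. Against the DSG set they ran from -1.99 at Mir17hg to 0.09 beside Mir363. Every one was still above input at 42 °C, from 7.17 CPM at Dleu2, the host of miR-15a and miR-16-1, against 116 at 37 °C and 1.14 in input, to 314 CPM at Mir294.

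The genes of the machinery itself followed the other expressed genes. Of 26 genes of the Microprocessor, Argonaute and m6A pathways, 0 were higher and 15 lower (background 19.5%, and 42.7% and 65.7% in RNA quartiles 3 and 4). Their median was -0.73, against 0.07 and -0.09 for the knockout and DSG sets. Dgcr8, whose own transcript is a Microprocessor substrate, had 4.89 CPM at 42 °C and 11.5 at 37 °C, with 3.56 and 4.39 (ratio -1.24). Drosha was at -0.48 and Mettl3 at -1.05, or at 0.28 and 0.06 against the knockout set. Their RNA did not pass the test in either direction.

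Replication histone genes, whose transcripts end in a stem-loop, differed between references. Of 64 genes (43 distinct loci) 1 was higher and 32 lower against the library of the same set (background 19.6% and 19.5%). The median was -0.58 there, yet 1.24 against the knockout set and 1.16 against the DSG set. H1f1, a linker histone, had 27.5 CPM at 42 °C and 31.6 at 37 °C, with 6.23 and 11.5 in those sets. H4c9 had 26.9 and 34.9, with 5.90 and 8.46. Every histone value named here at 42 °C thus stood well above the knockout and DSG sets. METTL3 medians were -1.0 in H4 and -0.07 in H5. RNA of 5 of the 50 list members tested rose with the block (0.441% of all genes tested).

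Genes silent in these cells differed as well. Of 1103 olfactory receptor genes, which stem cells do not use, 489 were higher and 38 lower (background 19.6% and 19.5%). Among all loci under 1 CPM in RNA, 26.3% were higher and 10.9% lower. The olfactory receptor genes had a median ratio of 0.50, or 0.14 when scaled on the median window. Of these genes 35 were above all 37 °C precipitates (0.896% of all loci). Their median was -0.03 against the knockout set and 0.41 against the DSG set. The 39 Hox genes, which lie under Polycomb in these cells, had a median of 0.12, which turned to -0.24 under the median window scaling and -0.17 under the gene-free scaling. By RNA level in parental cells at 37 °C, the median DGCR8 signal over input at 42 °C was -0.54, -0.52, -0.33 and -0.04 from the lowest to the highest quartile of expressed genes. In the 37 °C library of the same set it was -0.31, -0.09, 0.21 and 0.76, and over their own inputs it was -0.32, -0.31, -0.22 and -0.08 in the knockout set and -0.24, -0.15, 0.06 and 0.42 in the DSG set. Within the expressed quartiles the rise was thus shallower at 42 °C than in the same set at 37 °C, and its slope lay between those of the knockout and DSG sets. Genes under 1 CPM had a median of -0.04 at 42 °C and of -0.23 at 37 °C in the same set. In the knockout and DSG sets it was -0.07 and 0.01. At 42 °C and in the knockout set the genes under 1 CPM thus stood level with the top quartile.

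**Figure D5:**
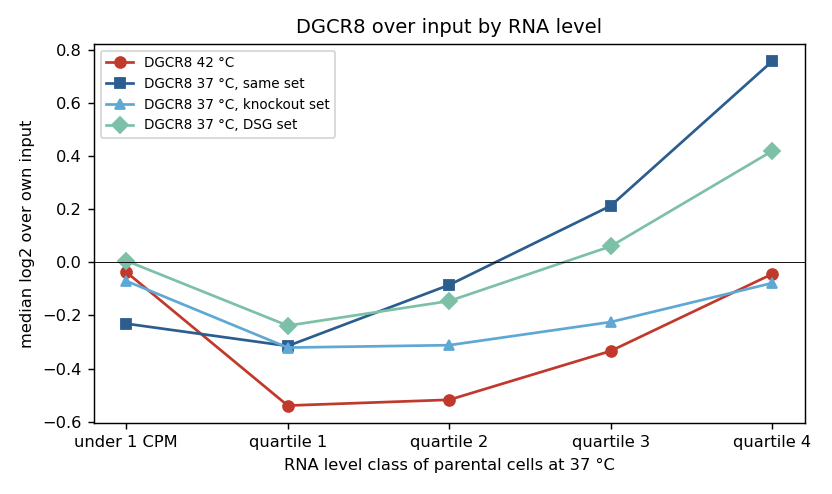
Median log2 of DGCR8 CPM over input by RNA level of parental cells at 37 °C (genes under 1 CPM, then quartiles of the rest), 1 line per DGCR8 precipitate, with the 42 °C library set over the 37 °C input. In the top quartile the values are -0.04 at 42 °C, 0.76 at 37 °C in the same set, -0.08 in the knockout set and 0.42 in the DSG set.

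The windows with the highest ratios were thin at 37 °C. The 10 highest windows had 170 to 194 counts at 42 °C and 0 at 37 °C. With 3 counts put in place of 0 they were 14.6-fold to 16.6-fold higher. The lower limits of their log2 intervals were 3.55 to 3.74. Against the knockout and DSG sets the same windows had log2 ratios of 0.17 to 0.88 and 0.06 to 1.39 and held no gene or genes silent here, such as Vmn1r197, a pheromone receptor, and Gnrhr, a hormone receptor. Among windows that passed the input filter and had at least 10 counts at 37 °C, a limit chosen after the data were seen, the highest were at Hspa1b (4.42) and Hsph1 (3.41 and 3.16). The fourth was in an intron cluster of repeated microRNA genes of Sfmbt2, the Mir466 and Mir669 families (3.03; 6.77 CPM at 42 °C and 0.79 at 37 °C, with 1.49, 0.90 and 0.26 in the knockout set, the DSG set and input). Reads from such near-identical copies may be split by the counting, so that value is uncertain. Of the 10 highest genes, 7 had 2 to 16 counts at 37 °C, such as Olfr1495, an olfactory receptor, with 237 counts at 42 °C and 2 at 37 °C (ratio 4.37, or 0.71 and 1.20 against the other sets). The 3 others were Hspa1b, Hspa1a and Hsph1.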

How the data were processed

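The read counts of the authors, deposited as whole numbers per 5 kb window (ChIP) and per gene (RNA), were used as they stand. The submitters' processing notes name Bowtie and the build mm10. Duplicate handling and the counter are not given in the sources used here, nor is the crosslinker of the heat set. ChIP libraries were scaled on chromosomes 1 to 19 and X (526765 of 546202 windows), and genes were placed with RefSeq coordinates of GRCm38.p6. Window calls took 2-fold, at least 50 counts in the precipitates and an input of 0.2 to 5 times the median window of 71 counts. That input filter removed 8158 loci above and 1096 below its limits, 5 of the 15 heat shock core genes among them, so list counts are given without it. RNA of all 12 libraries (7.10 to 13.6 M counts) was fitted with edgeR 4.0.16 (R 4.3.3, filterByExpr, TMM, quasi-likelihood test, Benjamini-Hochberg adjustment at 0.05). The deviations of a line's libraries at 42 °C and 37 °C from their group means correlated at 0.476 to 0.742, so lines pair the samples. DESeq2 1.42.0 was an alternative. The scripts were tested on simulated data (Python 3.11.15, pandas 2.3.3, scipy 1.17.1). The comparison and the lists were chosen with earlier results of these data known. Named are all heat shock core genes, up to 4 members per list with the most counts, the 10 highest and 10 lowest genes (at least 200 counts) and windows, Dgcr8, Mettl3, Drosha and genes called in RNA without the block. Further genes named where a count was small were chosen after their values were seen, as were the other settings of the stricter call, the other scaling of METTL3 and the limit of 10 counts on the highest windows. Of the tables used, 5 columns were not used.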

Additional observations from a re-analysis of the deposited data

Results flagged for a closer look

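DGCR8 and METTL3 differed in sign at a pair of heat shock core genes. Hsp90ab1 had a DGCR8 log2 ratio of -0.39 (42 °C over 37 °C), whereas METTL3 was at 0.31 in H4 and 0.03 in H5. Chordc1 had a DGCR8 ratio of -0.64, whereas METTL3 was at 0.27 in both lines. With 1 library per temperature and line, the difference between the proteins was not tested. Against the DGCR8 precipitates of the knockout and DSG sets, Hsp90ab1 stood at 2.26 and 0.85 and Chordc1 at 0.59 and 0.35, so the DGCR8 sign at both genes turned with the 37 °C library used.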

How the results depend on the processing

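The DGCR8 results depended on the 37 °C library. With the knockout set in place of the 37 °C library, 4783 windows were higher and 4906 lower, and 1343 gene loci were higher and 1256 lower. With the DSG set these counts were 14227, 3546, 2688 and 1812. Changes of sign were followed for 57 named genes, not for all loci. Among those with ratios past 1.5-fold, the knockout set reversed the sign of Chordc1 (0.59), Ier2 (1.00), Mcl1 (1.03), Txnip (1.75) and Ubb (1.57). It also reversed Atf4 (0.21), Tdgf1 (0.10), Klf2 (0.11), Malat1 (0.30), Neat1 (0.79), Hnrnpu (0.12), Srsf2 (0.67) and Dgcr8 (0.46). The others were Mettl3 (0.062), Ncl (0.042), Ppia (1.43), Eif4a1 (0.65), Rpl13a (0.31) and Mir124a-1hg (1.51). Among the gene lists counted above for DGCR8 calls, medians past 1.5-fold that changed sign were other chaperones (0.20), other stress genes (0.51) and pluripotency (0.14). The rest were splicing regulators (0.13), Microprocessor and m6A (0.071) and housekeeping (0.087). Of the 57 genes, past 1.5-fold, the DSG set reversed Chordc1 (0.35), Mcl1 (0.048), Txnip (0.83), Ubb (0.78), Srsf2 (0.034), Dgcr8 (0.16) and Ppia (0.31). The start-site window alone reversed Txnip (0.37). Smaller ratios changed sign as well, such as Hsp90ab1 (2.26 and 0.85 with the knockout and DSG sets), Mcm7 (1.76 and 0.46), H1f1 (2.14 and 1.27), H4c9 (2.18 and 1.67), Fkbp4 (1.21 and 0.63) and, with the knockout set, Drosha (0.28) and the medians of replication histones (1.24), immediate early genes (0.66) and microRNA hosts (0.33).

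Scaling on the median window gave 37900 windows higher and 38066 lower, 3527 gene loci higher and 10587 lower, 237 above and 302 below all DGCR8 precipitates at 37 °C, and 238 higher and 3755 lower for METTL3 in both lines. Scaling on gene-free windows gave 43293 and 32283 windows, 4089 and 9555 loci, and 246 above and 298 below. Subtracting input gave 152107 higher and 47889 lower windows and 15177 and 9772 loci. Without the input filter 8946 loci were lower. Start-site windows alone (16285 loci tested) gave 4287 higher and 2766 lower, and genes extended by 5 kb (20413 tested) gave 3247 and 3374. The cause of these shifts was not tested. A pseudocount of 5 or 0.5 and a minimum of 100 or 20 counts kept every count of windows and loci within 1.5 times.

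In RNA the line as a replicate block gave 69 genes up and 50 down, DESeq2 26 and 5, no filter on low counts 20 and 2, and the parental libraries alone 2 and 0. Without 1 library at a time 2 to 3 genes were up and 0 to 1 down. Zfp941 was lost without the first parental library at 37 °C or either parental library at 42 °C, and in the parental libraries alone. At an unadjusted p under 0.05 stood 425 genes without the block and 2125 with it. The depth of the 37 °C precipitate, 20.4 M counts, limits ratios of windows with few counts.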
